A study of Mus musculus with 6 samples.

Results

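The genes described here encode the eukaryotic translation initiation factors, measured in LSK cells (lineage marker-, Sca1+, cKit+; a bone marrow population of haematopoietic stem and progenitor cells) sorted from mouse bone marrow. Members were taken by symbol: every probe that is not a control and whose gene name starts with Eif1, Eif2, Eif3, Eif4, Eif5 or Eif6, without the eIF2 kinases (Eif2ak) and the Y-linked Eif2s3y. This gave 51 genes with 99 probes, out of 37074 gene names and 56605 probes on the array. The study hybridised 6 1-colour Agilent arrays, 3 from control mice (Atg5w/w;VaviCre+) and 3 from Atg5f/f;Vav mice (Atg5f/f;VaviCre+), all C57BL/6 and 6 to 8 days old. Both groups carry the Vavi-Cre transgene, which is active in blood-forming cells, so they differ in the floxed allele of Atg5, a gene needed for autophagosome formation. The labels do not say whether a sample is 1 mouse or a pool, and p-values then measure only the spread between these samples, which may be technical.

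Initiation factors load the small ribosomal subunit onto an mRNA and place it at the start codon. eIF2, recharged by its exchange factor eIF2B, carries the initiator methionyl-tRNA; eIF3 holds the subunit together with the other factors; eIF4E binds the cap, eIF4G bridges it to the ribosome and eIF4A unwinds the leader. Blood stem cells are known for a low rate of protein synthesis, and phosphorylation of eIF2 and sequestration of eIF4E by the 4E-BPs are the best known brakes on the pathway.

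A probe's log2 signal is given here relative to the 75th percentile of its array, and a difference is the mean of the arrays labelled Atg5f/f;Vav minus the control mean. Of the 51 genes, 50 had a probe that stood well above background in 3 or more of the 6 arrays, and the probe that stands for each of these 50 was above background on all 6. Eif2c5, an old name for an argonaute gene on chromosome X, was above background on no array and was not tested. Of the 50 genes, 32 were higher on the arrays labelled Atg5f/f;Vav, 1 was lower (Eif4e1b) and 17 passed in neither direction (limma, Benjamini-Hochberg adjusted p under 0.05 over all 32074 probes tested). Over all 16089 genes tested by the same rule, 20.1% were higher and 14.4% were lower. The median difference was 0.51 over the 50 members, a fold of 1.43, against -0.006 over all genes. Folds of the 32 higher members ran from 1.30 to 2.25. Under quantile normalisation 16 members were higher, with a median of 0.24, and with no filter on dim probes 16 were.

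Among the complexes with at least 3 genes, the largest medians were those of eIF2 and eIF2B, which supply the initiator tRNA, at 0.90 and 0.80, and the smallest was that of the eIF4G scaffold genes, at 0.04. The eIF4G median is the value of an Eif4g2 probe. Another RefSeq probe of Eif4g2 differed by 0.69 (limma adjusted p = 0.0304), so this rank depends on the probe chosen. The median signal of the members was 3.27, 3.30 and 3.25 in the controls and 3.55, 3.68 and 3.98 on the arrays labelled Atg5f/f;Vav, so the groups did not overlap. Probes well above background made up 57.6% to 58.2% of the array in the controls and 54.8%, 53.9% and 51.6% on the same 3 arrays labelled Atg5f/f;Vav, and its part in the members' values was not tested. No overlap was also seen for 41 single members in the higher direction and 3 in the lower, against 31.6% and 25.6% of all genes. The third array labelled Atg5f/f;Vav was the highest of its group for 42 of the 50 members. Within the controls, replicate 3 was the highest for 40 of 50. The adjusted p of the 32 higher members lay between 0.0142 and 0.049, close below the threshold. Without control replicate 1 none of the 50 passed, with adjusted p of 0.066 to 0.162 for the 32, and without control replicate 2 none passed either, at 0.0689 to 0.149; the medians were then 0.50 and 0.49. The methods' t-test on the same values called 0 members after adjustment and 37 higher at an unadjusted p under 0.05.

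**Figure D1:**
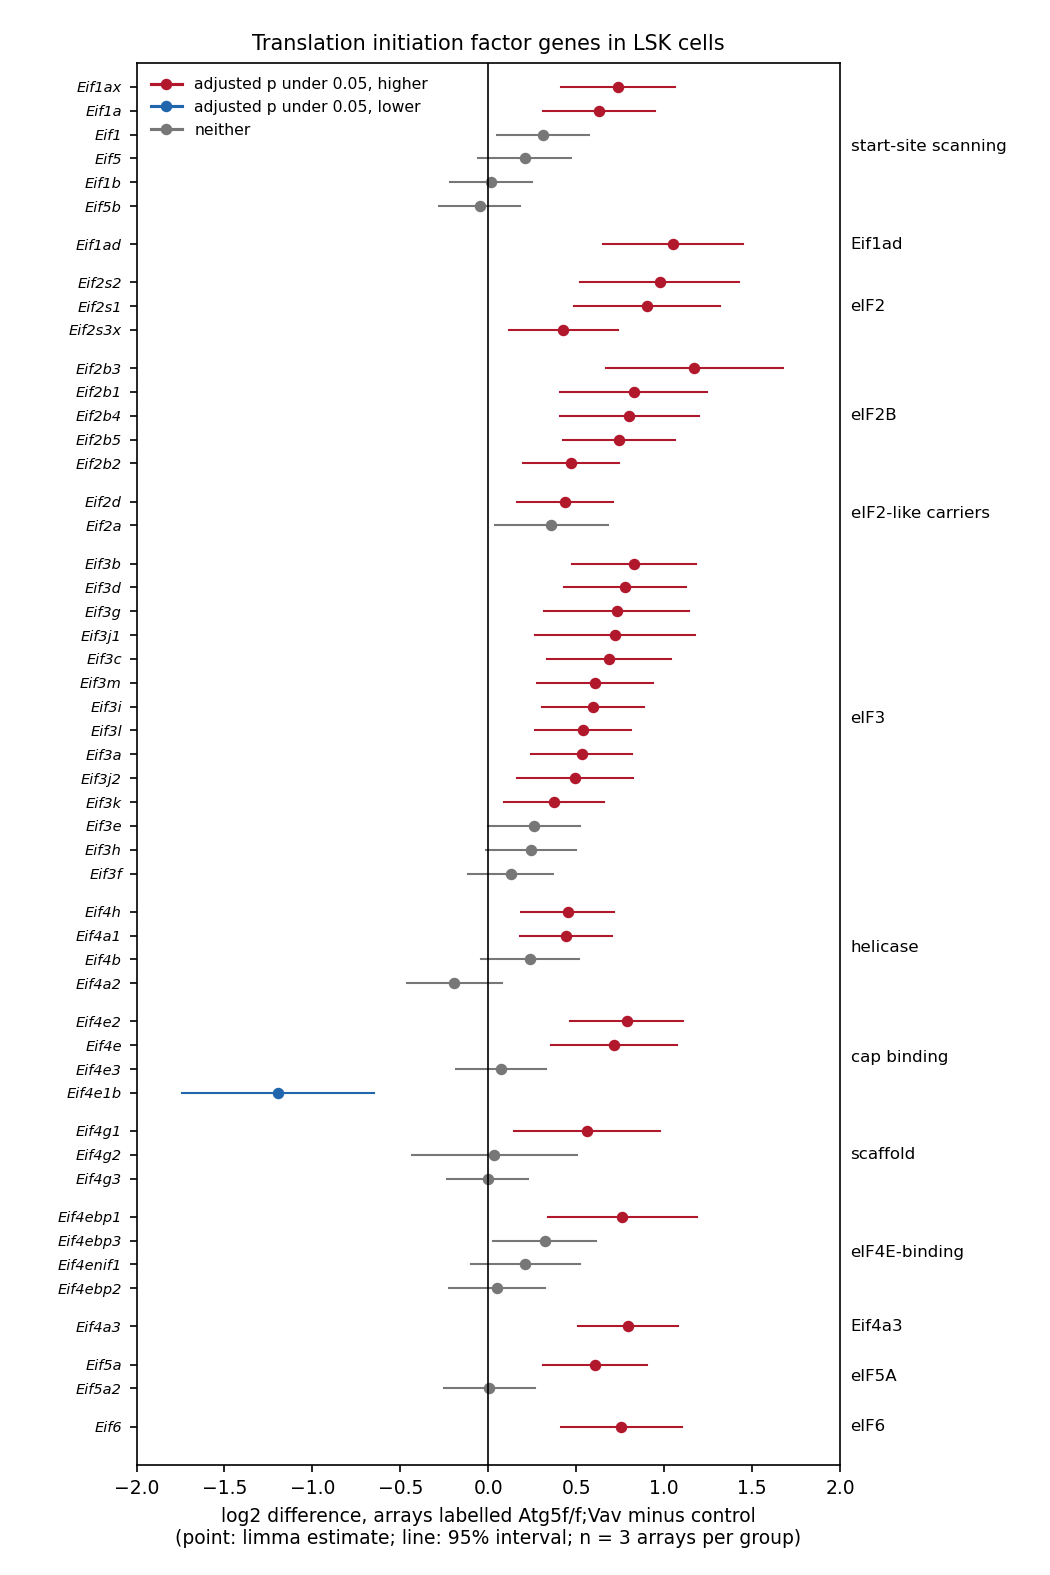
Log2 difference (arrays labelled Atg5f/f;Vav minus control, horizontal axis) of the 50 tested initiation factor genes, grouped by role, with 95% intervals from limma and 3 arrays per group. The 32 genes in red lie to the right of 0, Eif4e1b, in blue, is at -1.20, and the grey genes, among them Eif4a2, Eif5b and Eif4g3 at -0.19, -0.05 and -0.003, have intervals that reach close to or across 0.

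Some measurements of the whole arrays are given beside these values. The probe for Atg5 read 1.10, 0.93 and 1.06 in the controls and 1.46, 1.51 and 1.74 on the arrays labelled Atg5f/f;Vav. This difference of 0.54 ± 0.12 (SE, limma adjusted p = 0.0209) would go against the labels if the probe lies in the deleted part. Whether it does was not determined, so the groups are named by their labels throughout. All arrays lay on 1 slide with the slide row following genotype, and row and genotype cannot be told apart. The third array labelled Atg5f/f;Vav stood furthest from the controls (Pearson's r over all probes 0.971 to 0.975, against 0.982 to 0.987 for the other two); without it 29 members were higher and the median was 0.41. Control replicate 1 stood apart from the other controls in the stromal gene Col1a1, at -4.14 against 3.23 and 2.95.

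Some markers of cell state and of other cell types were also called, and their part in the results was not tested. The markers given with values were picked after these were seen. Each count below stands against 20.1% of all genes called higher and 14.4% called lower. All 12 of 12 proliferation genes were higher, with a median difference of 0.80 and a summed log2 level of 6.64 to 7.05 on control arrays and 7.42 to 7.86 on the others. Among 12 LSK markers Ly6a, which encodes Sca1, was higher, and Procr, Hlf, Mecom and Meis1 were lower; the summed levels were 7.49 to 7.56 and 6.79 to 7.51. Of 12 erythroid markers 5 were higher, among them Klf1 at 2.95 and Epor at 2.08, and 4 were lower, among them the globin gene Hba-a1 at -2.26, with summed levels of 8.64 to 9.59 and 7.67 to 8.12. Of 12 myeloid markers 5 were higher and 3 lower, with summed levels of 8.45 to 8.78 and 8.62 to 8.74. Of 8 B lineage markers 1 was higher (summed levels 3.21 to 3.63 and 3.43 to 4.16), and of 6 T lineage markers none was called, with Cd3g and Cd8a above background on no array (2.85 to 2.92 and 2.48 to 2.97). Of 6 megakaryocyte markers 1 was higher and 3 lower (2.92 to 3.18 and 2.68 to 2.76), and of 7 stromal markers 3 were lower, with Cdh5 above background on no array (3.36 to 5.35 and 2.78 to 3.27). In such bulk samples a change in the share of a cell type and a change in RNA per cell cannot be told apart.

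The ternary complex genes were the first group. eIF2 has an alpha, a beta and a gamma subunit, encoded by Eif2s1, Eif2s2 and Eif2s3x. All 3 genes were higher, against 20.1% of all genes, with a median of 0.90. Eif2s1, whose product carries the serine that stress kinases phosphorylate, read 2.69, 2.59 and 2.97 in the controls and 3.51, 3.48 and 3.96 on the arrays labelled Atg5f/f;Vav (probe at mm9 chr12:79986224-79986283). Its groups lay well apart, with a difference of 0.90 ± 0.17 (SE, n = 3 arrays per group, limma adjusted p = 0.0168). Eif2s2 read 3.64, 3.60 and 3.92 against 4.43, 4.59 and 5.07 (chr2:154698193-154698252), a fold of 1.96 (difference 0.97 ± 0.19, adjusted p = 0.0168 in limma). Every one of the 3 Eif2s2 values labelled Atg5f/f;Vav was above the highest control. A further Eif2s2 probe on another transcript differed by 0.44 (adjusted p = 0.032, limma).

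Eif2s3x, the X-linked gamma subunit gene, differed least, at 0.43 ± 0.13 (limma adjusted p = 0.0435), and it did not pass in any fit that left out an array, nor under quantile normalisation (0.30, adjusted p = 0.113 in limma). Its further tested probe differed by 0.15 (adjusted p = 0.614 in limma). Of the genes that report the sex of the animals, Xist was above background on no array, and Ddx3y, Kdm5d and Uty passed in neither direction, at 0.03, -0.21 and -0.31.

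eIF2B is the guanine nucleotide exchange factor that returns eIF2 to its active form, and phosphorylated eIF2 inhibits it. All 5 of its subunit genes, Eif2b1 to Eif2b5, were higher, against 20.1% of all genes, with a median of 0.80. None of their 5 group pairs overlapped, against 31.6% of all genes without overlap in the higher direction. Eif2b3, for the gamma subunit, had the largest rise of all 50 members. Its signal was 0.57, 0.53 and 0.86 in the controls and 1.50, 1.70 and 2.26 on the arrays labelled Atg5f/f;Vav, a fold of 2.25 (difference 1.17 ± 0.21, limma adjusted p = 0.0161). The array holds 3 separate 60-base probes for Eif2b3, in different exons and all open in 1 shared reading frame, and they are shown because they gave nearly the same difference.
Eif2b3, chr4:116731398-116731457: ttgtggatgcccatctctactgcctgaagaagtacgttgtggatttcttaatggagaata
Eif2b3, chr4:116739087-116739146: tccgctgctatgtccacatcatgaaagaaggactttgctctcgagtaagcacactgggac
Eif2b3, chr4:116754232-116759318: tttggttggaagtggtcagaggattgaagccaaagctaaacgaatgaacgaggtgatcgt

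Written 5′ to 3′ in the sense of the transcript with mm9 coordinates, the 3 sequences start at bases 674, 971 and 1350 of the Eif2b3 transcript, and the last spans a splice junction. Their differences were 1.17, 1.20 and 1.17, with limma adjusted p of 0.0149, 0.0142 and 0.0161. The measurement of Eif2b3 therefore did not rest on 1 oligonucleotide.

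Eif2b5 encodes the catalytic epsilon subunit. It read 1.60, 1.44 and 1.71 in the controls and 2.23, 2.23 and 2.51 on the others (chr16:20509188-20509247), without overlap and with a fold of 1.67 (difference 0.74 ± 0.13, limma adjusted p = 0.016). The regulatory subunit genes Eif2b1 and Eif2b4 differed by 0.83 and 0.80, and Eif2b2 by 0.47 (0.13 under quantile normalisation, limma adjusted p = 0.306). A second RefSeq probe of Eif2b4 differed by 0.62 and was also higher, whereas a probe of Eif2b1 on another transcript differed by -0.19 (adjusted p = 0.438, limma). The names eIF2A and eIF2D belong to unrelated proteins that can bring tRNA to the ribosome in other ways. Eif2d read 2.62, 2.56 and 2.71 against 2.95, 3.04 and 3.20 (chr1:133069992-133070048), again without overlap, and differed by 0.43 ± 0.12 (limma adjusted p = 0.0298; 0.17 under quantile normalisation, adjusted p = 0.201). Eif2a did not pass, with a difference of 0.36 and an interval of 0.04 to 0.68.

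**Figure D2:**
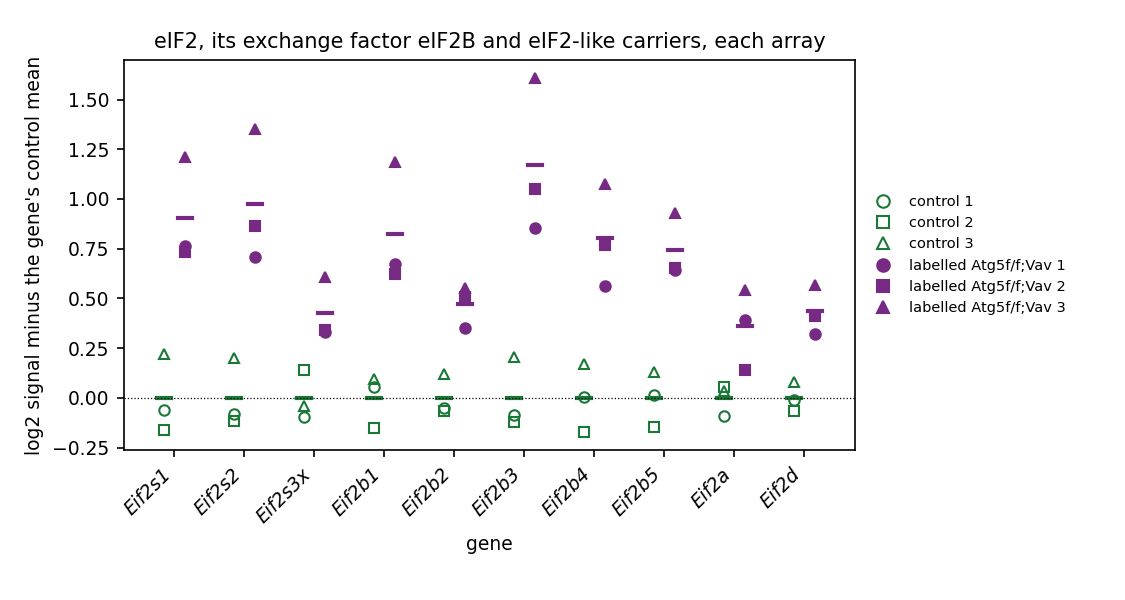
Log2 signal of the eIF2, eIF2B, Eif2a and Eif2d genes on each of the 6 arrays, minus the control mean of the same gene (vertical axis), with open green symbols for control, filled purple symbols for arrays labelled Atg5f/f;Vav and bars for group means. The purple symbols lie above the green ones in all 10 genes, and the purple triangle, the third array, is the topmost in each.

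The genes regulated around eIF2 were described from a list of its kinases and phosphatase subunits. Of 6 tested, 2 were higher and none lower, against 20.1% and 14.4% of all genes. Eif2ak2, the double-stranded RNA dependent kinase, differed by 0.88 ± 0.12 (limma adjusted p = 0.013). Ppp1r15b, a regulatory subunit that directs phosphatase to eIF2, differed by 0.70 ± 0.17 (limma adjusted p = 0.0239). The remaining 4 did not pass, with differences from -0.14 for Eif2ak4, the amino acid starvation kinase, to 0.20 for Eif2ak1, the haem-regulated kinase.

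Start-site recognition rests on eIF1 and eIF1A, which keep the scanning ribosome open, eIF5, which triggers GTP hydrolysis by eIF2, and eIF5B, which joins the ribosomal subunits. Of 6 genes 2 were higher, both encoding eIF1A, against 20.1% of all genes, and none was lower. The median was 0.26. Eif1ax read 3.49, 3.37 and 3.66 in the controls and 4.15, 4.15 and 4.44 on the arrays labelled Atg5f/f;Vav (chrX:155823495-155823554), a clear gap, with a difference of 0.74 ± 0.14 (limma adjusted p = 0.0165). Eif1a, its relative on chromosome 18, differed by 0.63 ± 0.13 (adjusted p = 0.0188 in limma). A further Eif1ax probe on another transcript differed by 0.16, with overlapping groups (limma adjusted p = 0.545).

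Eif1 read 5.37, 5.28 and 5.53 against 5.73, 5.66 and 5.73 (chr11:100182749-100182808), which did not overlap, but its difference of 0.31 ± 0.11 did not pass (limma adjusted p = 0.0678). Its second probe gave nearly the same value, 0.30. Eif5 read 3.19, 3.24 and 3.28 against 3.34, 3.41 and 3.58 (chr12:112778375-112778434), also without overlap and without passing, at 0.21 ± 0.11 (limma adjusted p = 0.179). Eif1b and Eif5b differed by 0.02 and -0.05, with intervals of -0.22 to 0.25 and -0.28 to 0.18. Eif1ad, named for its eIF1A-like domain, stood out: 3.52, 3.58 and 3.82 in the controls and 4.46, 4.63 and 4.99 on the others (chr19:5370188-5370247), the second largest rise among the members with a fold of 2.07 (difference 1.05 ± 0.17, limma adjusted p = 0.0147).

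eIF3 is the largest initiation factor, and 14 genes of its subunits were on the array. Of these 11 were higher and none lower, against 20.1% and 14.4% of all genes. Their median was 0.57, with a range from 0.13 (Eif3f) to 0.83 (Eif3b). Under quantile normalisation 2 of the 14, Eif3b and Eif3d, were higher (limma adjusted p = 0.0329 and 0.0344), and with no filter on dim probes 3 were. Eif3a encodes the subunit around which the complex is built. It read 4.26, 4.19 and 4.41 in the controls and 4.77, 4.72 and 4.96 on the arrays labelled Atg5f/f;Vav (chr19:60837743-60837802), without overlap, a difference of 0.53 ± 0.12 (limma adjusted p = 0.0212), which was 0.18 under quantile normalisation (adjusted p = 0.178). Eif3b, whose product joins eIF3a to the smaller core subunits, read 4.80, 4.75 and 5.01 against 5.52, 5.59 and 5.93 (chr5:140919207-140919266), a gap wider than the spread in either group and a fold of 1.78 (difference 0.83 ± 0.15, limma adjusted p = 0.0159).

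The subunits were also described in 3 sets, drawn up with earlier results of these data known. The sets coincide with the calls, so the split cannot show a pattern by structure. The a, b, c, g and i subunits, the core conserved down to yeast, had a median of 0.69, and all 5 genes passed. The d, k, l and m subunits and the loosely bound j (Eif3j1 and Eif3j2) had a median of 0.57, and all 6 genes passed, from 0.37 for Eif3k to 0.78 for Eif3d, although Eif3k did not pass in any fit that left out an array and was at 0.05 under quantile normalisation (limma adjusted p = 0.724). Of these 11 genes 9 lost their call under quantile normalisation. Eif3e and the genes of the MPN-domain subunits, Eif3f and Eif3h, did not pass, at 0.26, 0.13 and 0.25, and the signs of Eif3e and Eif3f turned under quantile normalisation (-0.09 and -0.17). With an intensity trend in limma Eif3e and Eif3h were called higher (adjusted p = 0.049 and 0.0434). The Eif3h probe is spotted 10 times on each array, and its 3 values labelled Atg5f/f;Vav were 6.28, 6.30 and 6.30 against 6.00, 5.97 and 6.18 in the controls. The upper ends of the intervals of Eif3e, Eif3f and Eif3h were 0.52, 0.37 and 0.50, so a change of the size seen in Eif3b was outside them. The difference between the 3 sets of subunits was not tested.

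**Figure D3:**
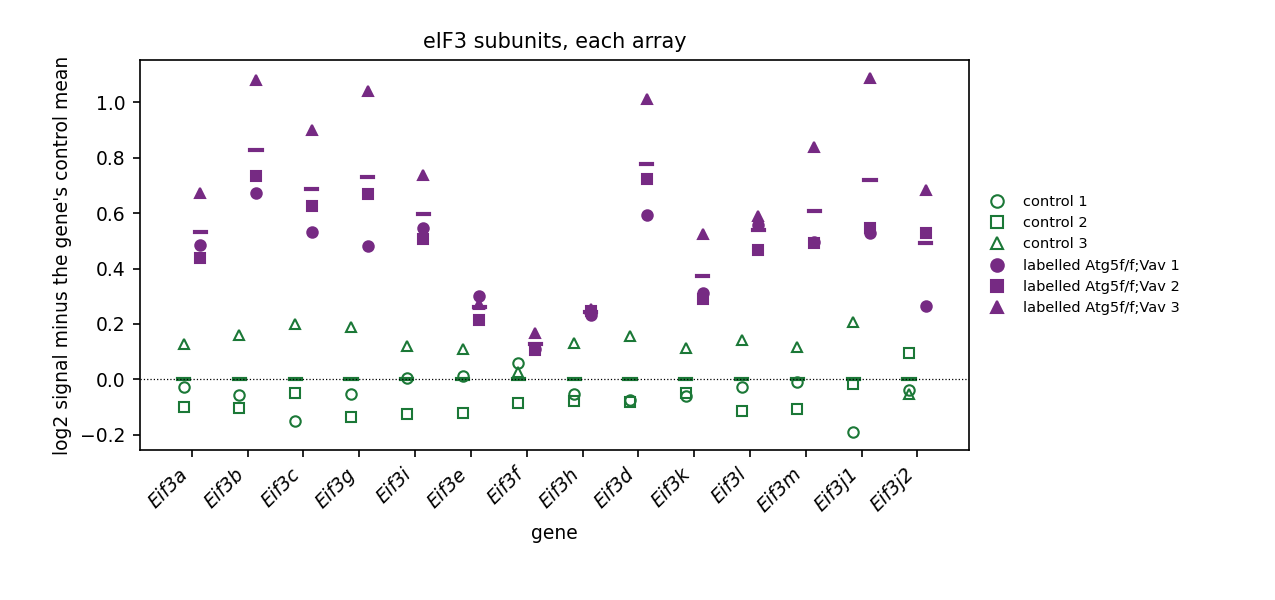
Log2 signal of the 14 eIF3 genes on each array, minus the control mean of the same gene, with symbols as for eIF2 and bars for group means. Eif3e, Eif3f and Eif3h, in the middle, show purple group means of 0.26, 0.13 and 0.25, and Eif3b and Eif3d show the highest means at 0.83 and 0.78.

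The Eif3a gene also showed that not all probes of a gene moved together. Probes on other, non-RefSeq transcripts in the same gene differed by -0.26 (chr19:60849055-60849114, adjusted p = 0.329) and by -0.63 (chr19:60864885-60864944, adjusted p = 0.0304, limma), the latter lower. Both were dim, with mean signals of -3.4 and -4.0 against 4.55 for the brightest probe. The probe called lower was above background on 2 of the 3 arrays labelled Atg5f/f;Vav. With the mean of all tested probes, in which the dim probes weigh as much as the brightest one, Eif3a differed by -0.12.

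The cap-binding complex eIF4F and its cofactors were split between paralogues. Over the 11 genes of the eIF4A, eIF4B, eIF4H, eIF4E and eIF4G families, 5 were higher, 1 was lower and 5 passed in neither direction. Their median was 0.24, and over all genes 20.1% were higher and 14.4% lower. Eif4a1, the main RNA helicase of initiation, read 6.06, 6.06 and 6.20 in the controls and 6.50, 6.49 and 6.66 on the arrays labelled Atg5f/f;Vav (chr11:69480486-69480545), close within each group and apart between them, with a difference of 0.44 ± 0.11 (limma adjusted p = 0.0259). It missed the threshold under quantile normalisation, at 0.23 (limma adjusted p = 0.0931), and with the percentile taken over detected probes, at 0.28 (adjusted p = 0.0517). Eif4h, which stimulates the helicase, read 5.15, 5.08 and 5.24 against 5.60, 5.51 and 5.72 (chr5:135095784-135095843), again without overlap, and differed by 0.45 ± 0.11 (limma adjusted p = 0.025), or by 0.10 under quantile normalisation (adjusted p = 0.449). Eif4b, the related cofactor, differed by 0.24 ± 0.12 and did not pass (limma adjusted p = 0.154).

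Eif4a2, the paralogue of Eif4a1, had a difference of -0.19 (95% interval -0.46 to 0.08). It was called lower under quantile normalisation, at -0.53 (limma adjusted p = 0.0206), and with the percentile over detected probes, at -0.35 (limma adjusted p = 0.0331). Its other tested probes read -0.56 (limma adjusted p = 0.0588) and -0.25. The ratio of the Eif4a1 to the Eif4a2 probe within an array, of which only the change between arrays can be read, was 2.05, 2.04 and 2.04 in the controls and 2.71, 2.66 and 2.66 on the others in log2 units. The change of 0.63 ± 0.02 (SE) was far larger than the spread within either group. With 3 arrays against 3 the smallest p of a 2-sided exact permutation test is 0.1, which this pair reached. Eif4a3, a relative that works in the exon junction complex and not in initiation, read 1.27, 1.18 and 1.36 against 2.10, 1.91 and 2.17 (chr11:119154913-119154972), with no overlap, and differed by 0.79 ± 0.12, the smallest adjusted p among the 50 probes that stand for a gene (0.0142, limma).

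Among the cap-binding proteins, Eif4e, the cap-binding subunit of eIF4F, and Eif4e2, a homologue that binds caps without recruiting the ribosome, were both higher. Eif4e read 1.60, 1.58 and 1.86 against 2.30, 2.24 and 2.64 (chr3:138219236-138219295), without overlap, a fold of 1.64 (difference 0.71 ± 0.15, limma adjusted p = 0.0187). Eif4e2 read 2.72, 2.67 and 2.89 against 3.43, 3.45 and 3.76 (chr1:89122748-89122807), without overlap, a fold of 1.72 (difference 0.79 ± 0.14, limma adjusted p = 0.0153). Further probes differed less: 0.12 for an Eif4e probe on another transcript, and 0.06 and -0.50 for the other Eif4e2 probes, none past the threshold. Eif4e3 differed by 0.07, with an interval of -0.18 to 0.33.

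Eif4e1b, a paralogue known from oocytes, was the only member called lower. Its brightest probe read -2.68, -2.49 and -3.07 in the controls and -4.18, -3.51 and -4.14 on the arrays labelled Atg5f/f;Vav, low but above background on all 6 arrays, and the difference was -1.20 ± 0.23 (limma adjusted p = 0.0167), which was -0.62 with normexp background correction (adjusted p = 0.0145). It did not pass without control replicate 1 or 2, at -1.16 and -1.07 (limma adjusted p = 0.0683 and 0.0719). Of the other 4 probes of Eif4e1b, 3 were above background on no array. The remaining one reads the next stretch of the same transcript, and both are shown because they disagree.
Eif4e1b, chr13:54888049-54888224: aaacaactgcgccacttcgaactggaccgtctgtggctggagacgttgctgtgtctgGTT
Eif4e1b, chr13:54888222-54888281: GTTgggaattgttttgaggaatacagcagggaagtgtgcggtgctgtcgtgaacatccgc

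In these mm9 probes the capitals mark the 3 bases that both contain, and the probes start at bases 542 and 599 of the transcript. The second probe was above background on 4 of 6 arrays, read -4.27, -4.47 and -5.33 in the controls and -5.23, -4.03 and -4.07 in the others, and differed by 0.24 (interval -0.71 to 1.19, limma adjusted p = 0.654). The groups of the second probe overlapped, and the mean of both probes was not called lower. Adjacent probes of Eif4e1b thus gave values of opposite sign.

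Of the scaffold genes Eif4g1 alone passed. It read 3.89, 3.91 and 4.06 against 4.30, 4.37 and 4.89 (chr16:20692815-20692874), without overlap but with the third array labelled Atg5f/f;Vav far above the other two, and differed by 0.56 ± 0.18 (limma adjusted p = 0.046), a call kept in 2 of the 6 fits that left out an array and lost under quantile normalisation (0.22, adjusted p = 0.248). Its 4 further probes differed by 0.33, 0.08, -0.26 and -0.15, none past the threshold. Eif4g3 differed by -0.003 (interval -0.23 to 0.23). Eif4g2, whose product lacks the eIF4E-binding part, differed by 0.04, and its signals labelled Atg5f/f;Vav were spread from 2.05 to 2.82 around the controls. Another RefSeq probe of Eif4g2 differed by 0.69 and was called higher (limma adjusted p = 0.0304), and the remaining one read 0.38 (adjusted p = 0.107), so the probes of this gene disagree.

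The 4E-BPs hold eIF4E away from eIF4G. Eif4ebp1 read 3.16, 3.08 and 3.19 in the controls and 3.59, 3.86 and 4.27 on the arrays labelled Atg5f/f;Vav (chr8:28385887-28385946), tight in the controls and wide in the other group yet without overlap, and differed by 0.76 ± 0.18 (limma adjusted p = 0.0227; 0.46 under quantile normalisation, adjusted p = 0.0595). Eif4ebp2, Eif4ebp3 and Eif4enif1, the gene of a shuttling eIF4E-binding protein, did not pass, at 0.05, 0.32 and 0.21. Among 12 other partners of cap-dependent initiation, such as the poly(A)-binding proteins and eIF4E kinases, 1 was higher and none lower, against the same 20.1% and 14.4%. It was Larp1, which binds the caps of ribosomal protein mRNAs, at 0.77 ± 0.19 (limma adjusted p = 0.0239).

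eIF5A and eIF6 act at other steps. eIF5A carries hypusine, a modified lysine, and helps the ribosome over difficult peptide bonds. Eif5a read 7.40, 7.42 and 7.51 against 7.86, 8.07 and 8.22 (chr11:69730228-69730287), without overlap, with a difference of 0.61 ± 0.13 (limma adjusted p = 0.0181), and its second probe differed by 1.16 (limma adjusted p = 0.00821). Its paralogue Eif5a2 differed by 0.005, with an interval of -0.25 to 0.26. Both enzymes that make hypusine were higher, against 20.1% of all genes. Dhps differed by 0.67 ± 0.13 and Dohh by 0.87 ± 0.13 (limma adjusted p = 0.0168 and 0.0138). Eif6, which keeps the large ribosomal subunit from joining too early, read 3.53, 3.43 and 3.58 against 4.07, 4.21 and 4.53 (chr2:155645718-155645777), without overlap, with a fold of 1.69 (difference 0.76 ± 0.15, limma adjusted p = 0.0167). A second RefSeq probe of Eif6 differed by 0.84 and was also higher. A further Eif6 probe on another transcript differed by 0.17, with overlapping groups (limma adjusted p = 0.314).

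Paralogue pairs were compared through the log2 ratio of their probes within each array, which removes any scaling of whole arrays, with 11 pairs in all. In 8 pairs the ratios of the groups did not overlap, each at the smallest exact permutation p of 0.1 (0.138 after Benjamini-Hochberg adjustment over the 11), so none can pass at this size. The largest change was 0.71 ± 0.18 for Eif4ebp1 over Eif4ebp2, followed by 0.64 ± 0.16 for Eif4e over Eif4e3, 0.63 ± 0.02 for Eif4a1 over Eif4a2 and 0.60 ± 0.15 for Eif5a over Eif5a2. The ratio of Eif4g1 changed by 0.57 ± 0.20 against Eif4g3 and by 0.53 ± 0.12 against Eif4g2. The change against Eif4g2 depends on the probe used, which differed by 0.04. Another RefSeq probe of Eif4g2 differed by 0.69, more than the 0.56 of Eif4g1, and no further Eif4g1 probe passed. Smaller changes were found for Eif4ebp1 over Eif4ebp3, at 0.44 ± 0.16, and Eif1 over Eif1b, at 0.30 ± 0.08. The pairs Eif1a and Eif1ax, Eif3j1 and Eif3j2, and Eif4e and Eif4e2 overlapped between groups, at -0.11 ± 0.05, 0.23 ± 0.17 and -0.07 ± 0.04 (exact permutation p = 0.2 each).

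**Figure D4:**
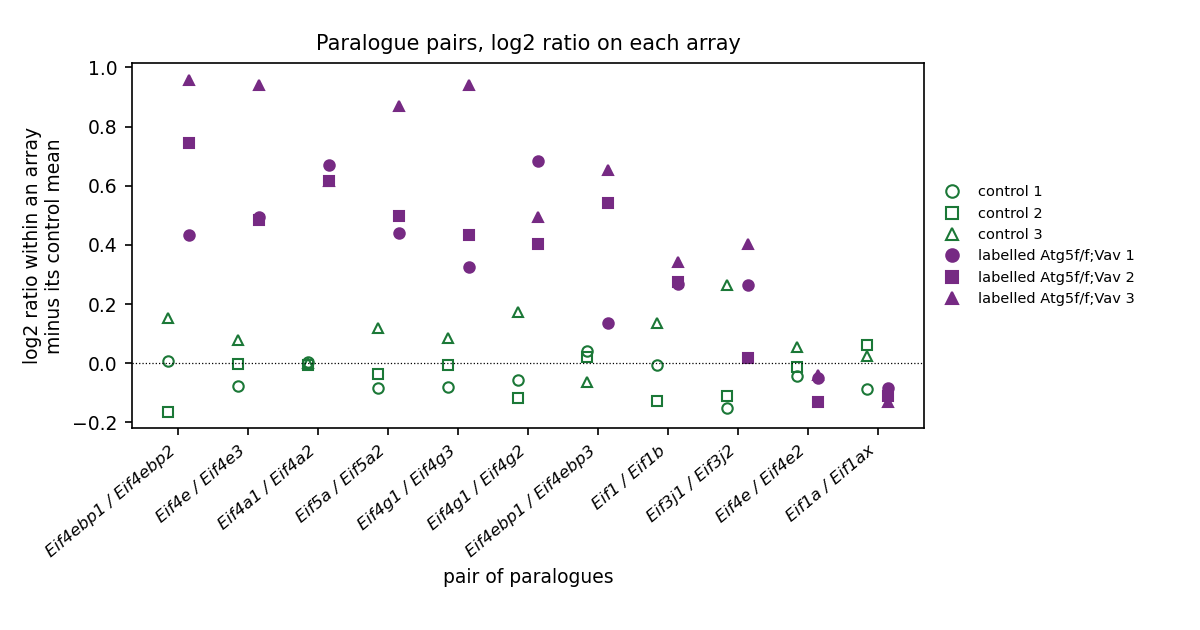
Log2 ratio of the first to the second gene of 11 paralogue pairs on each array, minus the control mean of that pair (vertical axis). The 8 pairs on the left have all filled purple symbols above the open green ones, and the Eif4a1 over Eif4a2 symbols are the most tightly grouped, at 0.63 on average for the arrays labelled Atg5f/f;Vav.

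Calls were also counted by the transcript that a probe was designed on. Of the 99 probes 75 were designed on RefSeq transcripts, and of the 71 tested 39 were higher and 1 lower, with a median of 0.44. Of 24 on other transcripts, such as cDNA clones and Ensembl models, 18 were tested, 2 were higher and 1 lower, and the median was 0.01. Over all probes of the array the shares called higher and lower were 21.1% and 13.8% on RefSeq transcripts and 9.15% and 24.2% on the others. The 32 higher members had 27 further tested probes, of which 8 were higher, 1 was lower and 18 passed in neither direction; on RefSeq transcripts 6 of 12 were higher and on others 2 of 15. The mean over all tested probes of a gene left 25 members higher and none lower. Of the probes on the opposite strand of a member, 1 for Eif3d and 1 for Eif4e, neither was above background on any array.

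**Figure D5:**
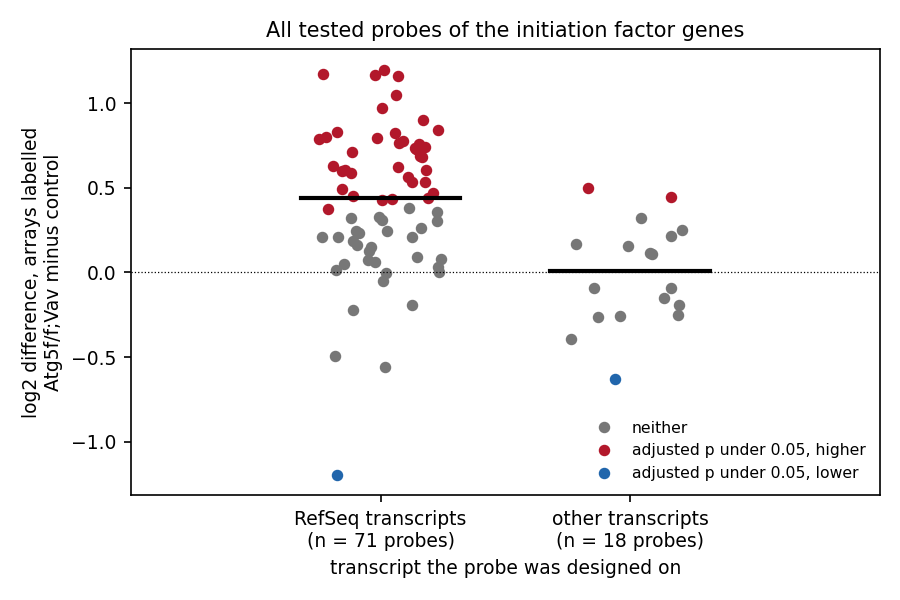
Log2 difference of each of the 89 tested probes of the initiation factor genes (vertical axis), by whether it was designed on a RefSeq transcript (71 probes) or another transcript (18 probes), with black bars at the medians of 0.44 and 0.01. Probes called higher (red) are mostly on the left.

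Beyond initiation, other genes of the translation pathway were counted in the same way. Over all 34 tested genes from 6 lists, 13 were higher and 1 lower, against 20.1% and 14.4% of all genes, with a median of 0.31. Among 4 genes of reinitiation and ribosome recycling, Denr, which helps ribosomes restart after short reading frames, differed by 0.64 and Abce1, the recycling ATPase, by 0.73, and both were higher. Of 7 genes listed under elongation, not all of them elongation factors, 4 were higher. These were Eef1e1, a component of the multi-synthetase complex, by 0.92, Eef1d by 0.61, Eef1g by 0.50 and Eef2 by 0.41. The remaining 3 passed in neither direction. Of the release factors Etf1 and Gspt1 were higher, at 0.65 and 0.47, and Gspt2 was the 1 lower gene, at -0.51 ± 0.13 (limma adjusted p = 0.0253).

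Promoter sequence was examined because many members were higher together. RefSeq promoter entries (GRCm38.p6, from 250 bases before to 50 after a start) were found for 38 of the 50 tested members by symbol. The E-box CACGTG, the same on both strands and the site of Myc and related factors, was present for 10 of 38 (26.3%), against 11% of 11358 tested genes and 7.15% of all 32851 promoters. The ETS core CCGGAA, searched on both strands, was present for 20 of 38 (52.6%), against 28.1% of tested genes and 14.9% of all promoters. A gene counted when any of its entries held the motif, whereas the shares of all promoters are per entry and not directly comparable. Among the 26 members with an entry that were higher, 7 held the E-box and 13 the ETS core; among the 12 that passed in neither direction, 3 and 7 did. A match is a stretch of letters and not a measured site. Eif4a1 held the E-box too, but outside the 100 bases just before the start. Those 100 bases are shown for Eif4e, Eif4g1 and Eif4h, with the E-box match in capitals, chosen after the matches were seen.
Eif4e, chr3:138527168-138527267, plus strand: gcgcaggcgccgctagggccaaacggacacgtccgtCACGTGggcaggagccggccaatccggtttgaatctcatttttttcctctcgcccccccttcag
Eif4g1, chr16:20672627-20672726, plus strand: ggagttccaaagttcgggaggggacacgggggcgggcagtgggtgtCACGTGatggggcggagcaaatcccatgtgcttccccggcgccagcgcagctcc
Eif4h, chr5:134639410-134639509, minus strand: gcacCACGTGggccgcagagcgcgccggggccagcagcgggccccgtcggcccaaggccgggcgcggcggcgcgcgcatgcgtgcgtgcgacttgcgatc

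The ETS core is shown in the same way for the 3 eIF3 genes that held it more than once in this stretch, as CCGGAA or as its complement TTCCGG.
Eif3c, chr7:126566367-126566466, minus strand: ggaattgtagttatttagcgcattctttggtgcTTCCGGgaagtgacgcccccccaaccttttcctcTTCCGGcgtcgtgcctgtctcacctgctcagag
Eif3l, chr15:79075123-79075222, plus strand: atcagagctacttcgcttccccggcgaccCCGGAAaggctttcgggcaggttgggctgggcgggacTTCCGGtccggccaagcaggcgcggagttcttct
Eif3m, chr2:105017028-105017127, minus strand: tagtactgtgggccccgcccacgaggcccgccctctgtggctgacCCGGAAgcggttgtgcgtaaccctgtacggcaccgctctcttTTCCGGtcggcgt

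These 6 genes were all among the 32 higher members, with differences of 0.71 (Eif4e), 0.56 (Eif4g1), 0.45 (Eif4h), 0.69 (Eif3c), 0.54 (Eif3l) and 0.61 (Eif3m). The E-box was also present for Eif3f and Eif5a2, and the ETS core for Eif4a2 and Eif4g3, which passed in neither direction.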

How the data were processed

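LSK cells from 3 control and 3 Atg5f/f;Vav mice or pools (grouped by the sample labels) were profiled on 1-colour Agilent arrays with 60-base probes placed on mm9. The deposited scanner files hold 1 intensity per spot, which the authors obtained with Agilent Feature Extraction 12.0.3.1, background-subtracted and detrended without scaling between arrays. The deposited value table holds the same signal divided, to 3 significant digits, by each array's 75th percentile over all spots, a normalised signal on a linear scale, and was used as an alternative. Array depth cannot be counted, and the number of arrays limits the precision.

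The log2 scanner intensity was set relative to the 75th percentile of the 59305 non-control spots of its array (620.3 to 881.4 by array). Spots flagged as outliers numbered 64 to 81 on an array and were dropped, none was saturated, and replicate spots of a probe were averaged. A probe entered the 2-sided limma fit of both groups (lmFit, eBayes; limma 3.58.1, R 4.3.3; no covariate) when 3 or more of the 6 arrays had it well above background, and p-values were adjusted by Benjamini-Hochberg over 32074 probes with a threshold of 0.05. The script was tested on simulated data. A gene is represented by its tested probe with the highest mean signal. The methods give no test for single genes of the arrays, so the t-test they name for other data was an alternative. Paralogue ratios were compared with a 2-sided exact permutation test.

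Arrays are shown singly for the defining subunits of each role group and for the genes with the largest rise and fall past the threshold, and at most 4 genes are named from each other pathway list. The members and lists were chosen with earlier results of these data known. Promoters are RefSeq sequences of GRCm38.p6, and probe sequences and mm9 positions come from the scanner files. 17 alternative settings were run, as described below.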

Additional observations from a re-analysis of the deposited data

How the results depend on the processing

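All 32 higher members were higher in direction under each of the 17 alternatives, except Eif3a with the mean of all tested probes (-0.12). The count of 32 was 16 under quantile normalisation, 16 with no filter on dim probes and 0 under the methods' t-test (37 higher and 1 lower unadjusted). The count of 1 lower member was 2 under quantile normalisation, 2 with the percentile over probes detected on all arrays, with Eif4a2 the second in both cases, 0 with the mean of all tested probes and 0 under the t-test. The members' median of 0.51 was 0.24 under quantile normalisation and 0.36 with the percentile over detected probes, where the median of all genes shifted to -0.16. Leaving out 1 array gave 0 to 30 higher and 0 to 1 lower members and medians of 0.41 to 0.56. Without control replicate 1 or 2 the count fell to 0 while calls over all probes fell from 11024 to 330 and 251; at an unadjusted p under 0.05, 30 and 31 members were higher and 1 was lower in each.

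For the 34 other pathway genes, 13 higher became 8 under quantile normalisation, 6 without a filter and 0 under the t-test (16 unadjusted), and 1 lower became 2 with normexp, quantile normalisation (2) or an intensity trend (2), 3 with the percentile over detected probes, 0 without a filter and 0 under the t-test. Leaving out 1 array gave 0 to 15 higher and 0 to 1 lower.

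The replicate numbers were not taken to pair the samples: deviations of same-numbered arrays correlated at -0.07, 0.19 and 0.11. With a replicate block 30 members were higher and 1 lower, and the median was 0.51.

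Signs turned only for Eif3a and for members that missed the threshold. Under quantile normalisation these were Eif1 -0.048, Eif1b -0.261, Eif3e -0.085, Eif3f -0.171, Eif4b -0.123, Eif4ebp2 -0.239, Eif4g2 -0.196, Eif5 -0.078 and Eif5b 0.145. With the percentile over detected probes they were Eif1b -0.142, Eif3f -0.030, Eif4e3 -0.085, Eif4ebp2 -0.108, Eif4g2 -0.122 and Eif5a2 -0.153. Eif5a2 read -0.033 with normexp, and Eif4g3 0.018 in the deposited table. Leaving out 1 array, Eif1b ran from -0.011 to 0.029, Eif4ebp2 from -0.010 to 0.099, Eif4g2 from -0.164 to 0.223, Eif4g3 from -0.023 to 0.008 and Eif5a2 from -0.056 to 0.055. Where calls were lost or signs turned, the cause was not tested.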
